A study of Mytilus galloprovincialis with 8 samples.

Results

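A total of 161 transcripts were read in the digestive gland of mussels fed a toxic dinoflagellate. They gave little or no signal in the digestive gland of control mussels. The rule of choice held their gill ratios near 1, and 124 of them had no gill signal well above background on any array. The 161 were chosen among the 15070 array probes for contigs whose names begin with mgt200.forw, and the array held 51300 probes in all. By the codes of the study's libraries these names stand for the forward SSH library, although that reading is an inference from the names. The 161 thus make up 1.07% of the SSH forward probes, each from a contig of its own.

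The study compared adult *Mytilus galloprovincialis* fed for 24 h with *Prorocentrum lima*, which makes okadaic acid (OA), with mussels not given it. Both groups were otherwise kept on *Tetraselmis suecica* and *Isochrysis galbana*. The sample records put the dose at 200 cells/ml, and the study's methods state it per litre. The mussels came from a natural bed, and each RNA extract was a pool of tissue from 5 individuals, so that differences between single animals were not measured. There were 8 Agilent 2-colour arrays, 4 of digestive gland and 4 of gill. On each array 1 exposed and 1 control pool were hybridized together, and a second array of the same pools, with the dyes reversed, served as its dye swap. Both arrays of such a pair count as 1 replicate here, so n = 2 per tissue. The exposed mussels had eaten *P. lima* and the controls had not, and transcripts of the mussel and of ingested cells cannot be told apart without the contig sequences, which were not used here.

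Okadaic acid inhibits the serine/threonine phosphatases PP1 and PP2A and causes diarrhetic shellfish poisoning in people who eat contaminated bivalves. The digestive gland is where mussels break down the algae they filter and where most of the toxin accumulates, whereas the gill is the filtering and respiratory surface. SSH (suppression subtractive hybridization) removes the cDNAs shared by a pair of samples and amplifies those in excess in one of them. A forward library of exposed against control digestive gland is therefore made to hold transcripts of higher abundance after exposure. Rises of its probes in digestive gland are thus not independent evidence of direction, and it is not known here whether library and arrays shared RNA.

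Members were chosen from the same measurements that describe them. For each spot the background-subtracted median signal, set to 0 where negative, was raised by 50, and the log2 ratio of exposed over control was centred on the array's median. A member had to exceed 2 (a ratio of 4) in both digestive gland replicates and to have a mean gill ratio between -0.5 and 0.5 on the log2 scale. In addition, a control spot had to fail the scanner software's call of a signal well above background on at least 1 of the 4 digestive gland arrays. The digestive gland changes, the gill changes and the control detection below are for this reason descriptions without a test. The probes could not be paired with gene names or sequences, so that members are given by probe and contig, functions are not given, and the labelled tissues could not be checked against marker genes.

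All arrays lay on 1 slide with 1 scan date. Digestive gland took one row of array positions and gill another, and the effects of row and tissue cannot be told apart. Of the spots that were not controls, 51.7% to 57.4% per digestive gland array and 37.0% to 39.6% per gill array were well above background in both channels. No spot was saturated. The 308 negative control spots of each array had median background-subtracted signals between -4.0 and -1.0, and their 95th percentiles lay between 0.0 and 9.0 in the scanner's units. For 1 digestive gland array the dye entry is Cy6, taken here to mean Cy5. So turned, its log2 ratios had correlations of 0.829 to 0.906 with those of the remaining digestive gland arrays over 51248 to 51260 probes.

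In exposed digestive gland all 161 members were well above background on all 4 arrays, against 60.9% of the SSH forward probes and 57.1% of all probes, as a change over 2 with little control signal requires. Over the members, the exposed signal had a lowest value of 166.5, a median of 374.8 and a highest value of 20170 in replicate 1, and of 246.8, 640.5 and 32319 in replicate 2. The control signal ran from -8.0 over a median of 0.5 to 51.0 in replicate 1 and from -9.5 over -0.5 to 52.8 in replicate 2. As means of an array and its dye swap, the exposed and control ranges of the whole list therefore did not overlap in either replicate. They did overlap on the replicate 1 array with exposed in green, where exposed began at 85.5 and control ended at 103.5. Both exposed signals lay above both control signals for 161 of 161 members, which the rule required in substance, against 31.6% of all probes. In pooled tissue, more cells of a type and more RNA per cell cannot be told apart.

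**Figure D1:**
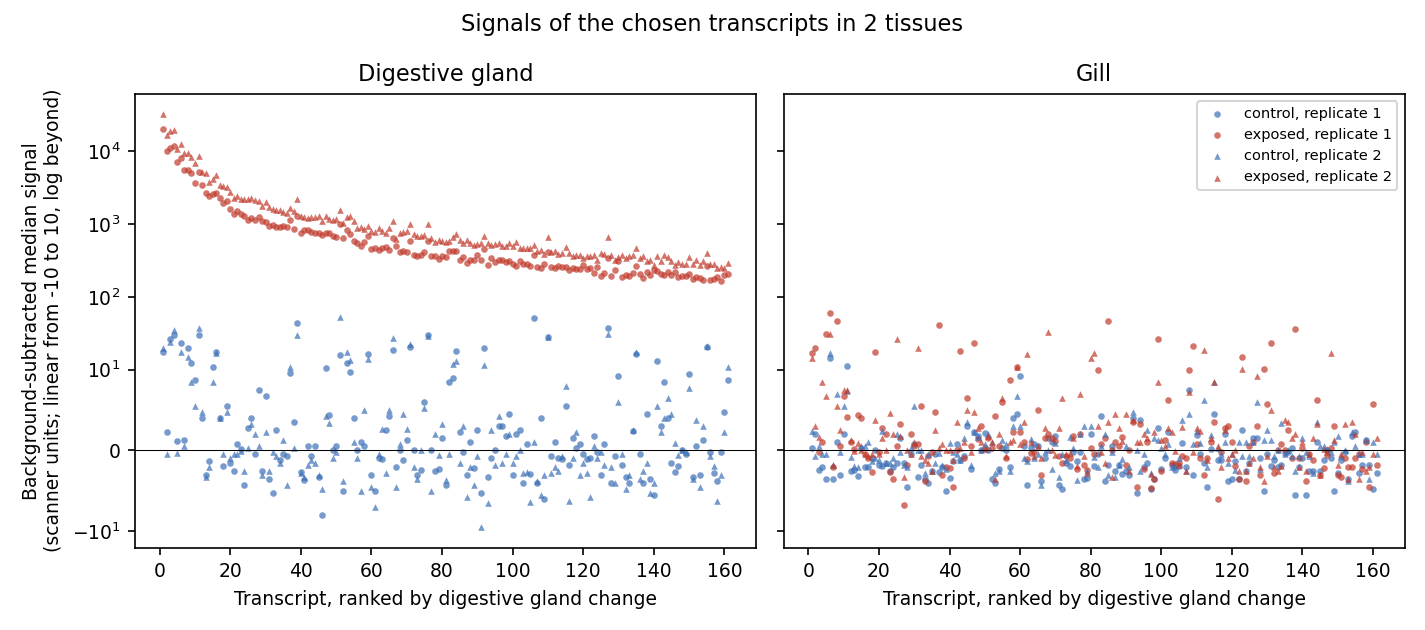
Background-subtracted median signal (scanner units, linear from -10 to 10 and logarithmic beyond) of the 161 transcripts ranked by their mean digestive gland change, in digestive gland (left) and gill (right). Red is exposed and blue is control, circles are replicate 1 and triangles replicate 2, each the mean of an array and its dye swap; in digestive gland the exposed points begin at 166.5 and the control points end at 52.8, while in gill both lie mostly between -10 and 10.

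The control side decides whether a transcript can be called switched on. For 134 of the 161 members (83.2%) no control spot was well above background on any digestive gland array, against 38.2% of the SSH forward probes and 37.7% of all probes. The rule used this call, so that nothing is read from the difference. The control was above it on 1 array for 8 members, on 2 for 7, on 3 for 10 and on 4 for 2. The last 2 qualified through 1 of their repeat spots, which failed the call on at least 1 array. The count of 134 depends on the call used. By the software's less strict significance call, 75 members had no control signal above background. On all 4 arrays 84 had control signals no higher than the 95th percentile of the negative control spots. These 84 are 52.2% of the members, against 20.4% of the SSH forward probes and 20.7% of all probes, a difference that the rule also favoured. Among the 27 members with some control signal, the control had a median of 18.8 in replicate 1 and 17.5 in replicate 2, whereas their exposed medians were 690.0 and 1092. Control signal was read more often in the red channel, on both arrays with the control in red for 19 of the 27 and on both arrays with it in green for 2. Per array, 13 members in green and 21 in red had control signal well above background in replicate 1, and 4 and 22 in replicate 2. These are 8.07%, 13.0%, 2.48% and 13.7% of the members, against 55.0%, 57.8%, 53.5% and 59.0% of the SSH forward probes. The 95th percentiles of the negative control spots in these channels were 0.0, 7.65, 1.0 and 4.3, in the same order.

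For the 134 members, the ratio has no measured denominator. The exposed level was therefore set against a floor, the higher on each array of the lowest signal well above background and the member's own signal, after loess and Aquantile normalization. This gave 3.28-fold for the lowest member, 6.25-fold at the median and at least 129.5-fold for the highest. For the lowest, CUST_40689_PI427859148, the floor (5.83 on the log2 scale) was its own control level (5.80 and 5.85 in the replicates). Its value is thus the fitted ratio (1.71 on the log2 scale) and not a bound set by detection. For the highest, CUST_37715_PI427859148, the floor of 5.32 lay above its control levels of 5.09 and 5.11. The offset added before normalization holds these ratios down.

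**Figure D2:**
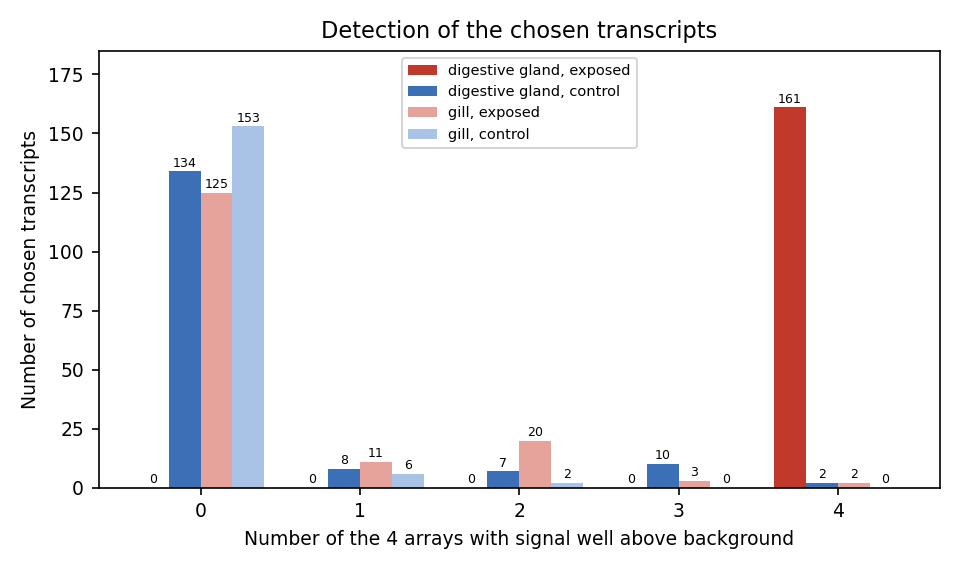
Number of the 161 transcripts (y axis) whose signal was well above background on 0, 1, 2, 3 or 4 of the 4 arrays (x axis), for exposed and control RNA of each tissue. All 161 sit at 4 arrays in exposed digestive gland, against 134 at 0 in control digestive gland, 125 at 0 in exposed gill and 153 at 0 in control gill.

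The mean digestive gland change of the members on the rule's scale ranged from 2.05 to 8.29, with a median of 3.05. It was over 3 for 87 members, over 4 for 46, over 5 for 20, over 6 for 12 and over 7 for 5. After normexp background correction with an offset of 50 and loess the median was 2.69. On both scales the change of a dim member is held down by the added 50. In limma 160 members had a value, and 160 of them passed an adjusted p under 0.05 as higher in exposed digestive gland, against 9.13% of all probes, and 0 as lower, against 8.7%. Nothing is read from these counts because the rule used the same contrast. The member left out, CUST_42836_PI427859148, lost its only spot on an array to an outlier mark and had a mean change of 5.31 by the rule.

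The largest change belonged to CUST_47823_PI427859148, for contig mgt200.forw_c15812. Its exposed digestive gland signal was 28731 and 11608 on the 2 arrays of replicate 1 and 40725 and 23914 on those of replicate 2, and its control signal was 8.5 and 26.5, then 6.0 and 33.8. Every exposed array was thus far above every control array, and the change was 8.08 in replicate 1 and 8.50 in replicate 2. The control was nevertheless well above background on 3 of 4 arrays, so that its signal was faint rather than absent. The 2 higher control values were those of the arrays with the control in red. Whether the faint signal came from this transcript in control mussels was not tested.

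CUST_37715_PI427859148 (mgt200.forw_c1594) came next and had no control signal. Its exposed signals were 15050 and 5066 in replicate 1 and 21270 and 12472 in replicate 2, against control signals of -2.0, 6.5, -4.5 and 3.5. The control values lay on both sides of 0 and the exposed level was at least 129.5-fold above the floor. The change was 7.36 and 7.97 in the replicates.

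CUST_39691_PI427859148 (mgt200.forw_rep_c3975) and CUST_40695_PI427859148 (mgt200.forw_rep_c6250) followed, and both kept a faint control signal. The first had exposed signals of 15697, 6310, 23254 and 14170 on the 4 arrays and control signals of 3.75, 48.8, 5.5 and 42.5. The second had exposed signals of 16767, 6904, 24971 and 14642 and control signals of 11.0, 48.5, 7.0 and 63.0. In both, the 2 higher control values were those of the arrays with the control in red. Neither was well above background in gill on any array.

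CUST_40033_PI427859148 (mgt200.forw_rep_c4741) was again without control signal in digestive gland, with exposed signals of 10192, 3918, 13496 and 7832 against -2.25, 4.5, -2.0 and 1.25. Its change was 6.92 and 7.32, and at least 90.3-fold above the floor. CUST_36276_PI427859148 (mgt200.forw_c56) read 7978, 3096, 11809 and 6802 in exposed and 3.0, -0.5, 1.0 and 0.0 in control pools, at least 75.1-fold. This transcript was also at background in both gill groups, where its 8 signals ran from -6.0 to 0.0.

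The other 4 of the 10 largest changes were those of CUST_48192_PI427859148 (mgt200.forw_c16302; 6.67 and 7.17), CUST_39279_PI427859148 (mgt200.forw_rep_c3434; 6.24 and 6.85), CUST_39308_PI427859148 (mgt200.forw_rep_c3469; 6.23 and 6.78) and CUST_51117_PI427859148 (mgt200.forw_rep_c20323; 5.88 and 6.59). The control was well above background on 3, 2, 1 and 0 digestive gland arrays in that order. Of the 10, CUST_36276_PI427859148 and CUST_51117_PI427859148 were the only ones called well above background in exposed digestive gland and in no other tissue and group. This depends on the call. CUST_51117_PI427859148 was within the limit of the negative control spots on 0 arrays in control digestive gland, 0 in exposed gill and 1 in control gill. For CUST_36276_PI427859148 these numbers were 3, 4 and 4. Over all members, some control signal was seen in 8 of the 20 with a mean change over 5 (40.0%), in 2 of 26 between 4 and 5 (7.69%), in 9 of 41 between 3 and 4 (22.0%) and in 8 of 74 between 2 and 3 (10.8%). The share with some control signal thus neither rose nor fell steadily with the size of the change.

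At the threshold the choice was a matter of hundredths. The members just inside were CUST_37266_PI427859148, CUST_39436_PI427859148 and CUST_40689_PI427859148, with 2.00, 2.02 and 2.02 in replicate 1 and 2.61, 2.36 and 2.08 in replicate 2. The SSH probes just outside that met the rest of the rule were CUST_47412_PI427859148, CUST_46642_PI427859148 and CUST_49721_PI427859148, with 1.99, 1.99 and 1.99 in replicate 1 and 2.01, 2.39 and 2.31 in replicate 2. Exposed signals in replicate 1 were 196.5, 172.8 and 203.8 for those inside and 165.8, 182.9 and 214.8 for those outside, so that the groups on either side of the threshold overlapped.

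Across the 161 members, which share the arrays and are not independent, the changes in replicate 1 and replicate 2 correlated at r = 0.992. Replicate 2 gave the larger change for 157 members (97.5%), with a median difference of 0.42, against 52.1% of the SSH forward probes and 46.8% of all probes. It also did so for 88 of the 89 SSH transcripts that met the rest of the rule but had control signal throughout, and for 74 of 74 that rose as much but lay outside the gill range. The exposed signal was higher in replicate 2 for all 161, at a median ratio of 1.66 between replicates, but it was also higher for 88.6% of the SSH forward probes (median ratio 1.54) and 86.1% of all probes (median ratio 1.48). The part of this brightness in the larger change of replicate 2 was not tested. The largest gaps were those of CUST_45015_PI427859148 (2.40 against 3.25), CUST_40369_PI427859148 (3.73 against 4.57) and CUST_38129_PI427859148 (4.10 against 4.93). An array and its swap differed by a median size of 0.24 in replicate 1 and 0.17 in replicate 2, and 39 members spotted 2 times had a median difference of 0.19 between spots of an array, with a highest of 1.58. The median gap between replicates was thus wider than that between dyes or between spots.

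**Figure D3:**
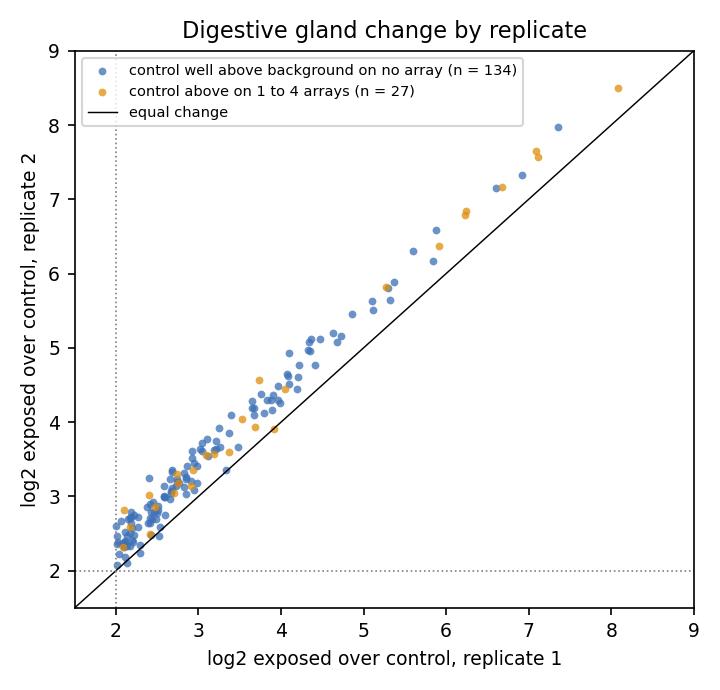
Change of each of the 161 transcripts in digestive gland (log2 exposed over control on the rule's scale) in replicate 1 (x axis) and replicate 2 (y axis), coloured by whether the control was well above background on no array (n = 134) or on 1 to 4 arrays (n = 27). Dotted lines mark the threshold of 2 and the solid line equal change; 157 of 161 points lie above the solid line.

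In gill the members were for the most part not measurable. No channel was well above background on any gill array for 124 of the 161 (77.0%), against 50.6% of all SSH forward probes and 45.1% of all probes. By the less strict call this number was 33, and by the negative control spots 55. None of the 161 was above background in both channels on all 4 gill arrays (3 by the negative control spots, 5 by the less strict call). Of the SSH forward probes 29.0% were, and of all probes 34.4%. Members were chosen for a gill ratio near 1 and little control signal in digestive gland, so that nothing is read from these differences. No channel was above background in gill for 51.7% of the 89 with control signal throughout and for 0 of the 74 outside the gill range. Over the members the gill signal ran from -6.75 over a median of 0.25 to 59.5 in exposed replicate 1, from -3.75 over 1.0 to 33.0 in exposed replicate 2, from -5.5 over -1.5 to 14.5 in control replicate 1 and from -4.25 over -0.25 to 17.0 in control replicate 2. The medians of all groups lay near 0 and the groups overlapped there. As means of an array and its dye swap, the highest exposed signals lay above every control signal. On the replicate 2 array with exposed in green, however, the highest control signal (30.0) exceeded the highest exposed signal (21.0). A gill ratio near 1 was therefore, for most members, the ratio of 2 backgrounds: it does not show that the transcript was present and unchanged.

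The mean gill change, held within -0.5 to 0.5 by the rule, had a median of -0.04 on the rule's scale and 0.03 after loess. A gill replicate lay outside that range for 9 members (5.59%), against 16.8% of the SSH forward probes and 17.0% of all probes. The rule had limited the mean of the replicates, so that nothing is read from this difference. The gill replicates correlated at r = 0.167 across the 161 members. With limma 0 of 160 members changed in gill, against 0.0293% of all probes, and 2 had an unadjusted p under 0.05, against 14.3% of all probes. The change differed between the tissues for 160 of 160 members against 9.72% of all probes, and all 160 had the larger rise in digestive gland, against 5.03%, a difference that the rule imposed.

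Some members did show in exposed gill. The exposed gill channel was well above background on at least 1 array for 36 members and on both arrays of a replicate for 25, whereas the control gill channel reached at least 1 array for 8 and both arrays of a replicate for 0. These are 22.4%, 15.5%, 4.97% and 0.0% of the members, against 47.9%, 41.2%, 40.6% and 33.3% of the SSH forward probes and 52.9%, 46.2%, 47.7% and 40.1% of all probes, so that the members were detected in gill less often than either in both groups. Of these 25, 15 were above background on both arrays of replicate 1 but not on both of replicate 2, 8 the other way round, and 2 on both arrays of both. Without gill replicate 1 the number was 10, and by the less strict call it was 60. Among the 153 members whose control gill channel was never above background, 22 (14.4%) had exposed gill signal on both arrays of a replicate, against 7.52% of such SSH forward probes and 6.39% of such probes on the whole array. It was higher in the sets most like the members: 30.3% of such probes among the 324 SSH forward probes over 2 in both digestive gland replicates, 19.1% among the 89 and 100% among the 74. The converse, control signal on both arrays of a replicate with exposed never above background, was met by 0 of 125 members and 0.178% of such SSH forward probes. Detection on both arrays of replicate 1 but not of replicate 2 was found for 9.32% of the members against 1.51% of the SSH forward probes, and the other way round for 4.97% against 6.03%. The first share was 12.7% among all 324 SSH forward probes over 2 in both digestive gland replicates, 12.4% among the 89 and 20.3% among the 74, so that it was not particular to the members. These shares were not tested, because the rule limited the gill ratios on which they bear.

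Both exposed gill signals lay above both control gill signals for 59 of 161 members (36.6%), against 29.2% of all probes and 34.0% of the SSH forward probes. Exact permutation of 2 values against 2 allows no p below 0.3333 (two-sided), so that no single member can be tested in this way. Both the count and this limit take the signals as unpaired, although the exposed and control pools of a replicate were hybridized together.

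The 2 members seen in exposed gill on all 4 arrays were CUST_47823_PI427859148 and CUST_48192_PI427859148. The first, which also had the largest digestive gland change, read 18.5 and 15.3 in exposed gill of replicate 1 and 18.0 and 10.5 in replicate 2, and -2.0, 2.5, 0.0 and 4.75 in control gill. Every exposed array lay above every control array, and the gill change was 0.37 and 0.19. The second read 67.0, 52.0, 46.0 and 15.0 in exposed gill and 3.0, 26.0, 4.0 and 30.0 in control gill, so that its groups overlapped. Its control gill channel was well above background in both replicates when labelled red.

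The other members named for their gill level were seen mainly in gill replicate 1. CUST_43841_PI427859148 (mgt200.forw_c10518) read 53.5 and 39.5 in exposed gill of replicate 1 but 9.0 and -2.0 in replicate 2, against control signals from -4.0 to 0.0. CUST_39116_PI427859148 (mgt200.forw_c3099) read 33.0 and 20.0 in replicate 1 and 11.0 and 6.0 in replicate 2, against 0.5 to 3.0. CUST_39279_PI427859148 read 50 and 43 in replicate 1 and 7.0 and 4.0 in replicate 2, against -1.0 to 13.0. In each, both arrays of replicate 1 were above background, whereas replicate 2 had at most 1 such array. For the 15 members above background on both arrays of replicate 1 but not of replicate 2, the exposed gill signal had a median of 23.0 in that replicate and 3.75 in the other.

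**Figure D4:**
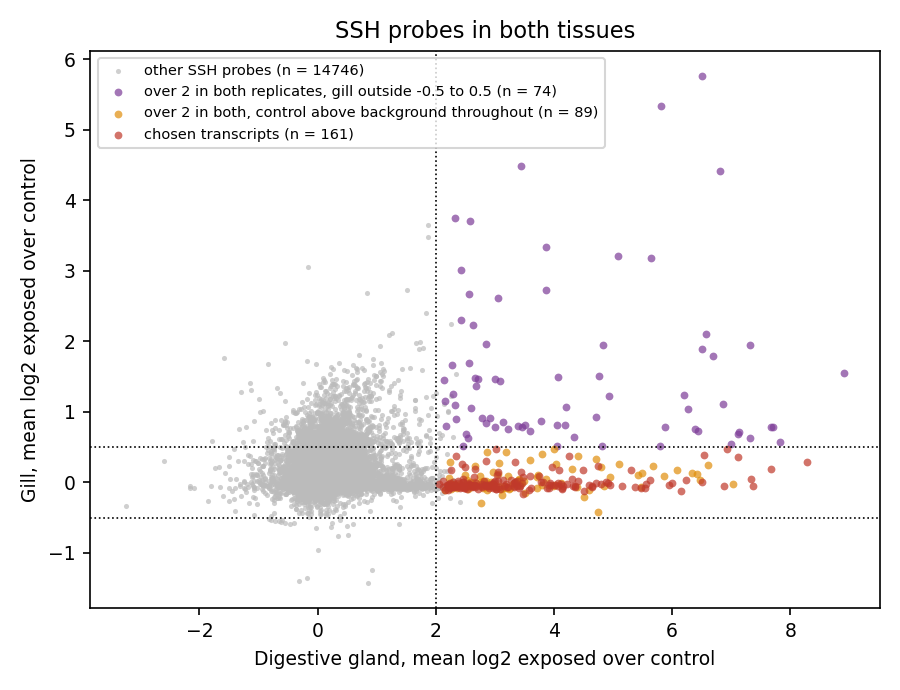
Mean change of the 15070 SSH forward probes in digestive gland (x axis) and gill (y axis), as log2 exposed over control on the rule's scale. The dotted lines mark 2 in digestive gland and -0.5 and 0.5 in gill; the 161 chosen transcripts are red, the 89 with control signal throughout orange, and the 74 outside the gill range purple, all 74 above 0.5.

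The members were one part of the SSH transcripts that rose in digestive gland. Of the SSH forward probes, 324 exceeded 2 in both digestive gland replicates, out of 374 on the whole array (0.729% of all probes). Of these 324, 74 lay outside the gill range, all 74 on the upper side, and 89 lay within it but had control signal well above background at every spot in digestive gland. The median digestive gland change was 3.05 for the 161 members, 3.24 for the 89 and 3.82 for the 74. The control signal of the 89 had a median of 100.5 in replicate 1 and 86.8 in replicate 2. In gill, 46 of the 89 (51.7%) had no channel above background on any array, and 13 of the 68 with no control gill signal (19.1%) had exposed signal on both arrays of a replicate. Signal missing from gill was thus also found among SSH transcripts outside the list. Its share among the 89 was near that of all SSH forward probes (50.6%) and below that of the members (77.0%). The same rule applied to the contigs of the other libraries on the array chose 22 of 19188 cDNA_MGT probes (0.115%) and 0 of 17037 cDNA_MGC probes, and the libraries differ in how they were made.

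Contig names with _rep_, a mark that the assembler MIRA sets on contigs from sequence of repeated or unusually high read coverage, were borne by 69 of the 161 members (42.9%). The share was 16.8% for all SSH forward probes and 27.6% for all probes. They were also frequent among the 89 (55.1%) and the 74 (37.8%). Within the middle range of the members' exposed digestive gland signal, from 311.3 to 1037, they made up 32 of 81 members (39.5%) and 250 of 1930 other SSH forward probes (13.0%). Their share was 70.0% of the 20 members with a mean change over 5 and 31.1% of the 74 between 2 and 3. The median change was 3.42 for the 69 and 2.92 for the 92 others. Contigs of this kind may share sequence with one another, and how many of the 161 are copies or pieces of the same transcript was not tested.

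On the array 39 members were spotted 2 times and 122 once. Their spots were spread over it, with 20.0% to 27.5% in each of 4 equal blocks, against 24.6% to 25.5% for the SSH forward probes.

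Membership depended on how faint control signals were treated. The added constant of 50 held ratios of faint spots down: with 16 in its place 288 transcripts met the rule, 148 of them among the 161, and with 100 there were 97, 89 of them members. The software's processed signals gave 444, of which 121 were members, and the authors' log2 table gave 246, of which 143 were members. Normexp with loess gave 128, of which 126 were members. Leaving out the array given as Cy6 kept all 161, and leaving out digestive gland replicate 1 gave 204, of which 160 were members.

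**Figure D5:**
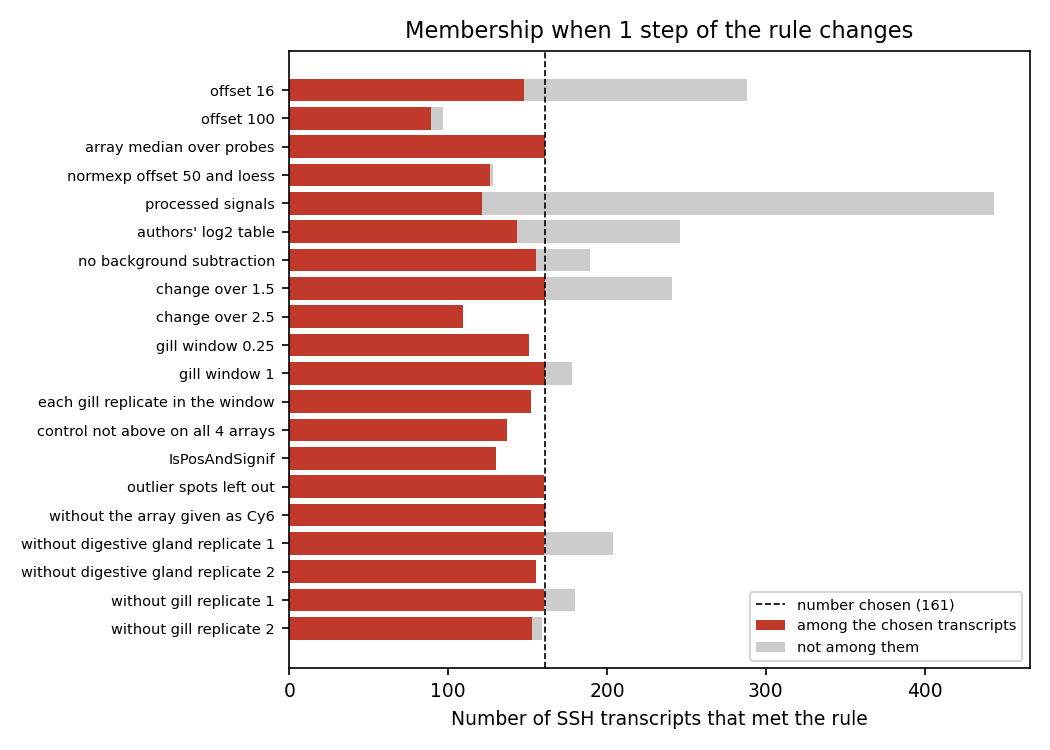
Number of SSH transcripts that met the rule (x axis) when 1 step was changed (y axis), split into those among the 161 chosen transcripts (red) and those not among them (grey), with a dashed line at 161. The number ran from 97 with an offset of 100 to 444 with the processed signals. Each of the 20 changes, taken singly, kept at least 89 of the 161. How many of the 161 met the rule under all 20 was not counted.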

How the data were processed

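The authors deposited for each array the Feature Extraction 10.7.3.1 output with spot intensities, background and quality calls, and a log2 table (red over green) whose processing is not named there. The log10 ratios of the software were not used. For the rule, background-subtracted median intensities were used as described. For the fit, normexp (offset 50) and loess in limma 3.58.1 (R 4.3.3) gave log2 ratios, outlier spots were left out, repeat spots and dye swaps were averaged, and 1 model with a mean per tissue was fitted to the 4 averages (2 residual degrees of freedom) with Benjamini-Hochberg adjustment at 0.05 over 51210 probes. The fit was tested on simulated data. Nothing states that the pools came from separate tanks, so that p-values measure only the spread between these pools. The number of arrays limits the precision.

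The members, lists and tests were chosen with earlier results of these data known. Named transcripts were the 10 with the largest change, the 3 nearest either side of the threshold, the 5 with the highest gill level and the 3 with the largest replicate gap. Alternatives changed the background, normalization, spots, calls, thresholds and replicates. The comparison with negative control spots and the numbers of members with no gill signal or with exposed gill signal were added after the data had been seen.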

Additional observations from a re-analysis of the deposited data

Results flagged for a closer look

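By limma's contrast of the tissues (adjusted p under 0.05), exposure changed 160 of the 160 members tested by a different amount in digestive gland than in gill, against 9.72% of all probes, and each had the larger rise in digestive gland. The rule chose members for a rise in digestive gland and a gill ratio near 1, so that this count is a consequence of the choice. With 1 replicate left out it was 128 to 153. In groups of 2 replicates no sample could be tested as standing apart.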

How the results depend on the processing

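The number of members was 161, and 288 with an offset of 16, 97 with an offset of 100, 444 with processed signals, 246 on the authors' log2 table and 155 to 204 with a replicate left out, while 12 other changes kept it within 1.5 times. With the members held fixed, their median digestive gland change after loess (2.69) was 5.10 with normexp at an offset of 0, 4.06 at an offset of 10, 3.26 without background subtraction, 6.50 with processed signals, 4.06 on the authors' table and 2.56 to 2.90 with a replicate left out. Their median gill change (0.027) was 0.20, 0.091 and 0.094 with normexp at offsets of 0 and 10 and on the authors' table, -0.013 with array medians, and 0.0059 to 0.036 with a replicate left out. Their median log2 level in gill (5.95) was 3.38 with normexp at an offset of 0, 5.34 without background subtraction, 5.88 without Aquantile and 5.92 to 5.94 with a replicate left out. None of the 21 named transcripts changed sign in digestive gland under 12 settings. They had been chosen for a rise over 2 in this tissue or lay just under that threshold, so that nothing is read from this.

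Members without control signal in digestive gland numbered 134, 75 by the less strict call, 84 by the negative control spots and 137 to 139 with a replicate left out. Members detected in both gill channels on all 4 arrays numbered 0, 5 by the less strict call, 3 by the negative control spots and 1 when 2 arrays sufficed. Members with no gill signal numbered 124, 33 by the less strict call, 55 by the negative control spots and 136 to 144 with a replicate left out, and those with exposed gill signal on both arrays of a replicate 25, 60 by the less strict call and 10 to 17 with a replicate left out.

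Over all probes, 4673 were higher in exposed digestive gland, 2943 with normexp at an offset of 0, 2535 with array medians, 7488 with arrays entered separately and the dye-swap pair as a random block, and 1399 to 3404 with a replicate left out. In gill 15 changed (7310 at an unadjusted p under 0.05), 1014 and 2791 with normexp at offsets of 0 and 10, 0 by limma with subtraction plus 50 (7003 at an unadjusted p under 0.05), 620 without background subtraction, 2564 with processed signals, 2782 on the authors' table, 8 with array medians, 44 with the first spot only, 454 without the Cy6 array, 4075 with arrays separate, 1139 among bright probes and 0 to 30 with a replicate left out. The change differed between tissues for 4979, 2360 with normexp at an offset of 0, 1401 with array medians, 11028 with arrays separate, 1994 among bright probes and 833 to 1847 with a replicate left out. At most 4 members changed in gill under these fits. The cause of these differences was not tested, except that a fit with a replicate left out has fewer samples.

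Replicate numbers are shared by the tissues, but the labels name no shared animals. Same-numbered deviations correlated at 0.162. With the replicate block 4698 probes differed between tissues, 158 of 160 members among them, and no other count was refitted.

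Signal over background limits these values: control digestive gland and both gill groups lay at background for most members. This leaves lower bounds in digestive gland where the floor lay above a member's own control level, and otherwise the fitted ratio.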
